A study of Mus musculus with 6 samples.

Results

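Vascular endothelial growth factors (VEGFs) and angiopoietins are secreted proteins that stromal cells send to blood and lymph vessels, and 10 genes for these ligands and their receptors were followed here. They were chosen by gene name from 22186 rows of the deposited table, which names genes by NCBI Gene number: the VEGF family ligands Vegfa (gene 22339), Vegfb (22340), Pgf (18654), Vegfc (22341) and Vegfd (14205), the angiopoietins Angpt1 (11600) and Angpt2 (11601), and the receptor genes Flt1 (14254), Kdr (16542) and Tek (21687). Messenger RNA was sequenced from primary adipose-derived stromal cells (ADSCs), fibroblast-like cells grown out of fat, of wild-type mice. The 3 control libraries came from ADSCs kept alone, and the other 3 from ADSCs that had shared a culture for 48 h with regulatory T cells (Treg), which restrain immune responses. The genotype is given as wild type for both groups, and the labels leave out strain, age and the source of the Treg. ADSCs cultured with another cell type were not analysed here, so what Treg did and what any added cell would do cannot be told apart. Whether each library of a group had its own animal or culture is not in the labels, and p-values therefore measure only how far these libraries spread, and that spread may be technical.

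VEGF ligands act through receptor tyrosine kinases that are best known on endothelial cells. VEGF-A binds Kdr, the main signalling receptor of blood vessel growth, and Flt1, which binds ligand tightly but signals weakly and also exists as a secreted trap. VEGF-B and placental growth factor bind Flt1, whereas VEGF-C and, in the mouse, VEGF-D act through the lymphatic receptor Flt4. The angiopoietins bind the receptor Tie2, encoded by Tek: angiopoietin-1 activates it and keeps vessels stable, and angiopoietin-2 is mostly a context-dependent antagonist that loosens them. Stromal cells and pericytes around vessels are a known source of several of these ligands.

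Of the 10 genes, 7 passed the test: Vegfd, Angpt2, Vegfb, Tek and Vegfc fell after co-culture, and Vegfa and Kdr rose. Vegfd fell 2.30-fold, Angpt2 1.61-fold, Vegfb 1.34-fold, Tek 1.32-fold and Vegfc 1.20-fold by the ratio of mean TPM, while Vegfa rose by 12.8% and Kdr by 23.2%. Angpt1 and Flt1 did not pass, with means 37.6% and 15.1% lower, nor did Pgf, with a mean 7.60% lower. The values are TPM, which correct for transcript length and add up to 1000000 in each library, and the test was limma on log2(TPM + 1) over the 12405 genes whose mean reached 1 TPM, with Benjamini-Hochberg adjusted p under 0.05 as the threshold. All 10 genes passed that filter on low values. In the same fit 37.8% of all genes tested passed, 19.8% higher and 18.0% lower, so a call was common in these libraries. The median log2 fold change was -0.31 over the 10 genes and 0.00 over all genes tested. The groups did not overlap for 9 of the 10 genes, against 49.3% of all genes tested; 7 of the 9 were lower and 2 higher after co-culture, against 24.0% and 25.3% of all genes. Vegfd and Angpt2 moved by at least 0.5 on the log2 scale in either direction, as did 9.13% of all genes tested. With batch as a block the same 7 genes passed, and 36.2% of all genes did.

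**Figure D1:**
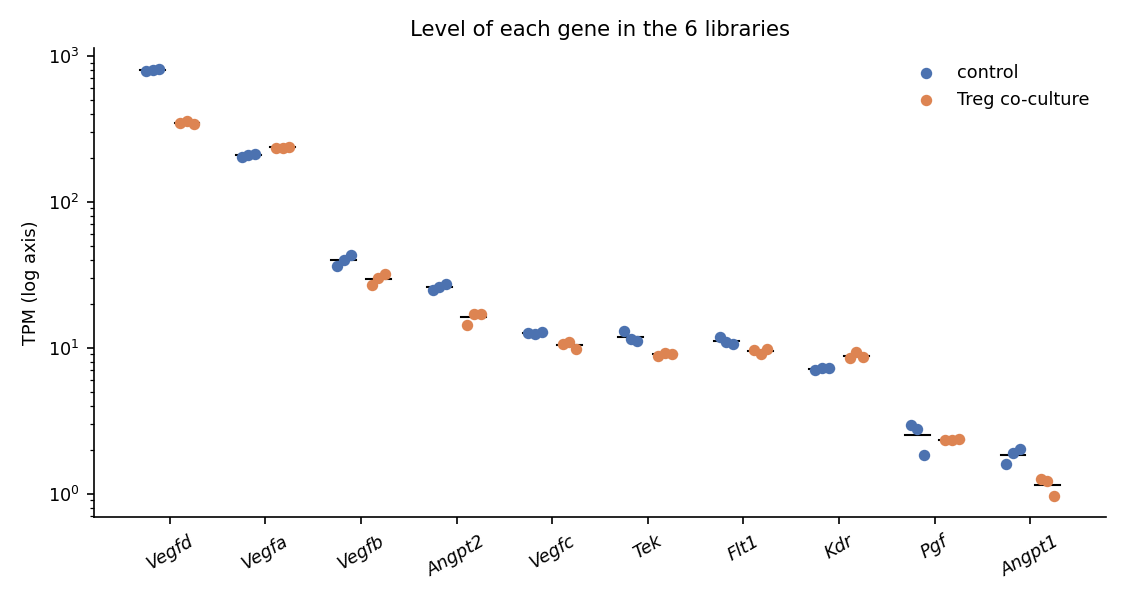
TPM (log axis) of each of the 10 genes in 3 control and 3 Treg co-culture libraries, ordered by control mean; points are libraries and bars are group means. Vegfd stands above all others in both groups, and the groups overlap for Pgf alone.

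Depth is unknown because TPM keeps no read counts. Libraries of the same group correlated at 0.994 to 0.995 (Pearson r of log2 values across genes), and 6566 to 7073 genes were listed at 0 per library. Treg co-culture 1 stood apart in 13 transcripts of adult heart and liver, which summed to 222 TPM there, 83.2 and 87.8 TPM in Treg co-culture 2 and 3 and 61.3 to 65.7 TPM in controls. The most abundant of the 13 were myoglobin Mb, the 1 of 8 tested that passed (higher), albumin Alb and the apolipoprotein Apoa2. Mb alone held 63.5, 58.5 and 61.4 TPM in controls and 99.1, 81.6 and 86.1 TPM in Treg co-culture 1, 2 and 3. It thus made up nearly all of each sum outside Treg co-culture 1. Alb held 64.9 TPM in Treg co-culture 1 and at most 0.21 TPM in any other library. Without that library Vegfd (log2 fold change -1.20), Angpt2 (-0.58), Vegfb (-0.35), Tek (-0.35) and Vegfa (0.18) kept their calls, and those of Kdr (0.29, adjusted p = 0.0546 in limma) and Vegfc (-0.26, adjusted p = 0.0558) were lost. T cell transcripts hardly appeared in any library. Of 12 T cell and Treg markers, 7 were listed at 0 in all 6 libraries, among them the T cell receptor chains Cd3e, Cd3d and Cd3g and the co-receptor Cd4, and the list summed to 3.37 to 3.88 TPM in controls and 3.83 to 4.26 TPM after co-culture. The most abundant of them were the transcription factor Ikzf2 (2.25 ± 0.137 and 2.36 ± 0.305 TPM), the kinase Lck (0.927 ± 0.249 and 1.02 ± 0.170 TPM) and the pan-leukocyte Ptprc (0.348 ± 0.0582 and 0.535 ± 0.0952 TPM; mean ± SD, n = 3 each, control first). Stromal markers were abundant: the collagens Col1a1 and Col1a2 and the integrin Itgb1 led a 14-gene list that summed to 16597 to 17296 TPM in controls and 14618 to 15151 TPM after co-culture, with 3 higher and 9 lower. Skeletal muscle markers summed to 1141 to 1183 TPM in controls and 2953 to 3019 TPM after co-culture. Acta1, Mylpf and Des led them, and all 8 tested rose. Of the genes tested, 85.7% of the stromal, 100% of the muscle and 12.5% of the heart and liver list passed. Over all genes tested 37.8% passed, 19.8% higher and 18.0% lower. In bulk RNA, fewer cells of a type and less RNA per cell cannot be told apart, and whether the muscle and stromal shifts took part in the changes of the 10 genes was not tested.

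Vegfd encodes VEGF-D, a lymphatic growth factor first described as a Fos-induced gene of fibroblasts. Controls 1, 2 and 3 held 791, 800 and 807 TPM of it, and co-culture libraries 1, 2 and 3 held 345, 355 and 341 TPM. All 3 co-culture values lay far below all 3 control values, and within either group the libraries differed by only a few percent. In limma it fell by 1.20 on the log2 scale (SE 0.02, adjusted p = 3.65e-10). In batches 1, 2 and 3, a number that the labels give to both a control and a co-culture library, it was -1.19, -1.17 and -1.24. Among the genes tested, 39 had a lower log2 fold change than Vegfd, and 0.597% fell by at least 1 on that scale. Vegfd was also among the most abundant transcripts of these cells: 164 of the genes tested had a higher mean TPM in controls, and 391 had after co-culture.

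Vegfa encodes VEGF-A, the chief growth factor of blood vessels, and it moved the other way. Its TPM were 204, 210 and 213 in controls and 233, 235 and 238 after co-culture, with every co-culture library above every control. The log2 fold change was 0.17 (SE 0.03, adjusted p = 0.000779 in limma), and within the batches it was 0.19, 0.17 and 0.16. The gene makes several splice forms that differ in how tightly they bind the matrix, and gene-level TPM do not separate them.

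Vegfb, whose protein binds Flt1, was lower after co-culture, at 27.0, 30.1 and 32.0 TPM against 36.1, 40.2 and 43.2 TPM in controls. The groups did not overlap, and within each batch the log2 difference was close to the same, at -0.41, -0.41 and -0.42. The fitted log2 fold change was -0.41 (SE 0.08, adjusted p = 0.00213 in limma).

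Vegfc, the paralog of Vegfd and the main driver of lymphatic vessel growth, had 12.6, 12.5 and 12.7 TPM in controls and 10.6, 11.0 and 9.81 TPM after co-culture. Every co-culture value was lower than every control, by a log2 fold change of -0.25 (SE 0.07, adjusted p = 0.0242 in limma). That call was lost without control 1, 2 or 3 or without Treg co-culture 1 or 3 (adjusted p = 0.0534 to 0.0861). Placental growth factor, Pgf, had 2.95, 2.78 and 1.83 TPM in controls and 2.33, 2.32 and 2.35 TPM after co-culture, so the co-culture libraries lay inside the control range. Its log2 fold change of -0.07 had a 95% interval from -0.41 to 0.28.

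Because the changes of the ligands differed in size, the makeup of the VEGF family ligand transcripts changed within each library. The 5 ligands summed to 1046, 1065 and 1077 TPM in controls and to 618, 634 and 624 TPM after co-culture. Without Vegfd the other ligands summed to 255, 265 and 271 TPM in controls and to 273, 279 and 283 TPM after co-culture. Vegfd thus made up 75.6%, 75.1% and 74.9% of the sum in controls and 55.8%, 56.0% and 54.7% after co-culture. The share of Vegfa was 19.4%, 19.7% and 19.8% in controls and 37.7%, 37.1% and 38.2% after co-culture. Each library held 3.79 to 3.89 Vegfd transcripts per Vegfa transcript in controls and 1.43 to 1.51 after co-culture. Multiplying a whole library by a single factor leaves this ratio unchanged. Vegfd was 63.4 ± 0.639 times as abundant as its paralog Vegfc in controls and 33.2 ± 1.36 times after co-culture (mean ± SD, n = 3 each). These shares and ratios are descriptions of the same TPM values as above and were not tested separately.

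**Figure D2:**
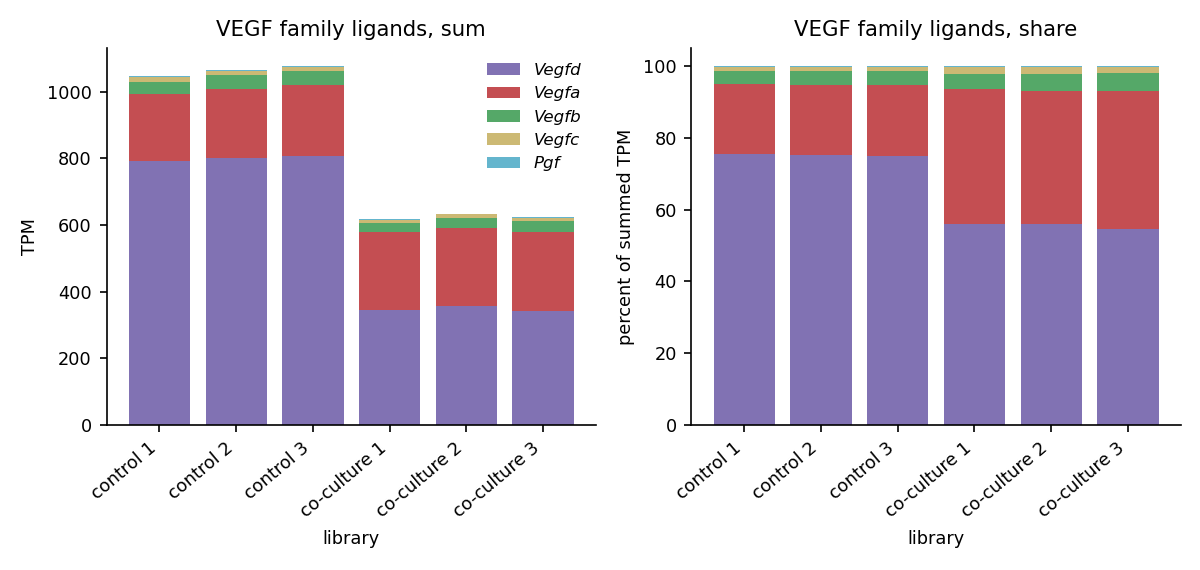
Stacked TPM (left) and percent of the summed TPM (right) of the 5 VEGF family ligands in each of the 6 libraries. The sum is lower in all 3 co-culture libraries, with Vegfd at 54.7% to 56.0% of it there and 74.9% to 75.6% in controls.

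The promoters of the VEGF ligands whose levels changed are shown because the 250-base window of the ligand that fell most held less G and C than those of the others. Whether promoter composition bears on the changes was not tested. The sequences come from RefSeq with build GRCm38.p6, 5′ to 3′ on the strand of the gene. They cover up to 250 bases before 1 annotated start of each gene, stopping at the first exon that GENCODE M21 annotates there. The bases just after the start were found in a GENCODE transcript of the gene for Vegfb and Vegfd, but not for Vegfa and Vegfc. Capitals mark the GC box, the letters GGGCGG on either strand, to which Sp1 family factors bind. Windows were found for 8 of the 10 genes, and none for Angpt1 and Angpt2.
Vegfa, chr17:46032378-46032627, minus strand: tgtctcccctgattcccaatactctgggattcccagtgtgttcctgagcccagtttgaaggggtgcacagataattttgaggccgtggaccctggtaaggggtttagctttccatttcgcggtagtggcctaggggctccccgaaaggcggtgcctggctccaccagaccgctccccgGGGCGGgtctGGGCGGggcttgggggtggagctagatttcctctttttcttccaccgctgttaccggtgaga
Vegfb, chr19:6987652-6987901, minus strand: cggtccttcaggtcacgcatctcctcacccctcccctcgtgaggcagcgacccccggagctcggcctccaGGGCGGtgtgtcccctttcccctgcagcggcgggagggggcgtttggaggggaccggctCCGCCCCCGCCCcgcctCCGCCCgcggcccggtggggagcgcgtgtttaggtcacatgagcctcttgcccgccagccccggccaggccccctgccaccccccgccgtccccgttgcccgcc
Vegfc, chr8:54077282-54077531, plus strand: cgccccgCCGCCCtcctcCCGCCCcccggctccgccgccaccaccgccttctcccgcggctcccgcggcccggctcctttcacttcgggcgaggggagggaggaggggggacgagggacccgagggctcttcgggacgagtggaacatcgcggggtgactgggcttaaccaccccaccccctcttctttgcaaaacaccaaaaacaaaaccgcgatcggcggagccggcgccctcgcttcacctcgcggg
Vegfd, chrX:164373272-164373377, plus strand: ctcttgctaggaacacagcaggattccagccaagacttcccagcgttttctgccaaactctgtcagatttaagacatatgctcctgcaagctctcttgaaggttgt

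The 250 bases before the Vegfd start held 42.4% G and C, against a median of 52.4% over all 32851 windows, and 16.9% of windows were lower. This share and the motif search cover all 250 bases. For Vegfd only the 106 printed bases lie before the first annotated exon of the window. For Vegfa, Vegfb and Vegfc all 250 are printed. The composition of the 106 bases alone was not computed. Those of Vegfa held 59.2%, Vegfc 71.6% and Vegfb 76.4%. A GC box was found in a window of 6 of the 8 genes, namely Vegfa, Vegfb, Pgf, Vegfc, Flt1 and Kdr, and in 32.7% of all windows. The first is a count of genes and the second of windows, and the 8 genes have 10 windows. The windows of these 6 genes held 59.2% to 76.4% G and C, all above the median. The windows of Pgf and of the second Vegfa start begin inside an annotated exon. Other letters searched on both strands were the HIF core ACGTG (16.6% of all windows), the AP-1 motif TGANTCA (6.75%), the STAT motif TTCNNNGAA (7.02%) and the E-box CAGCTG (13.0%). The HIF core matched in the window of a second Vegfa start and the E-box in that of a second Pgf start, with no other match among the 8 genes. Vegfd and Tek had none of the 5 motifs in these windows.

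Angpt2 encodes the Tie2 ligand that endothelial cells and some stromal cells make. Its TPM were 24.9, 26.1 and 27.1 in controls and 14.4, 17.0 and 17.1 after co-culture, so every co-culture library was lower than every control. The log2 fold change was -0.66 (SE 0.08, adjusted p = 9.37e-05 in limma), and within the batches it was -0.75, -0.59 and -0.63. The gene lies inside the span of Mcph1, and no label says whether counting used the strand, so reads of the overlap may not be separable. Mcph1 itself did not pass, with 7.33, 8.78 and 7.96 TPM in controls and 9.13, 9.32 and 9.66 TPM after co-culture. Kdr, Flt1 and Angpt1 overlap long non-coding RNA genes that have no values here, so the level of those is unknown. Vegfc overlaps the less studied gene Gm33153, which stood at 0.239 to 0.464 TPM over the 6 libraries. Reads of these overlaps may not be separable either.

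Angpt1, the activating Tie2 ligand, was the lowest of the 10 genes, with 1.60, 1.90 and 2.03 TPM in controls and 1.26, 1.22 and 0.962 TPM after co-culture. The groups did not overlap, but the log2 fold change of -0.40 (SE 0.15) did not pass (adjusted p = 0.0625 in limma), with within-batch differences of -0.20, -0.38 and -0.63. Angpt2 was 13.3 to 15.6 times as abundant as Angpt1 in controls and 11.4 to 17.8 times after co-culture, and these ranges overlap. The third angiopoietin gene, Angpt4, named after its values were seen, was more abundant than either, with a mean of 60.9 ± 3.10 TPM without Treg and 60.8 ± 4.04 TPM with them (SD, n = 3 each).

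**Figure D3:**
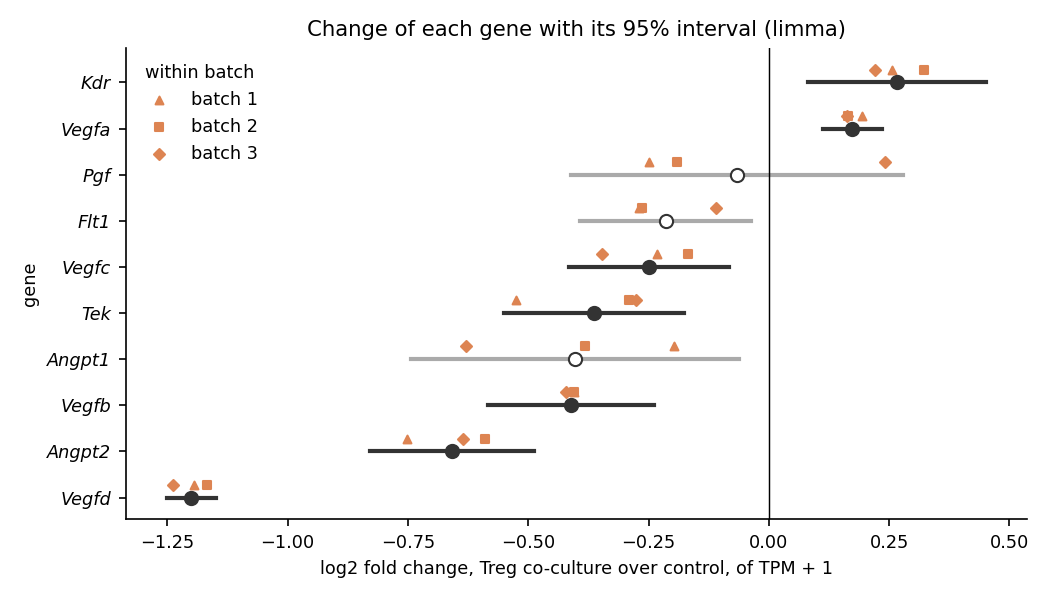
Log2 fold change of TPM + 1, Treg co-culture over control, for each of the 10 genes with limma's 95% interval; filled circles passed the threshold, open circles did not, and orange marks are the within-batch differences. All 3 within-batch differences have the same sign for every gene other than Pgf. For these 9 genes that follows from groups that do not overlap, and it holds under any pairing.

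Receptor transcripts were lower than those of Vegfd, Vegfa, Vegfb and Angpt2 and higher than those of Pgf and Angpt1 in both groups, and they did not move as a group. Kdr, the signalling receptor of VEGF-A, had 6.99, 7.21 and 7.29 TPM in controls and 8.54, 9.26 and 8.65 TPM after co-culture, with no overlap. Its log2 fold change of 0.27 (SE 0.08) passed at an adjusted p of 0.0285 in limma. The call was lost when any single library was left out (adjusted p = 0.0535 to 0.0932), with log2 fold changes between 0.23 and 0.29. Within the batches Kdr was higher by 0.26, 0.32 and 0.22.

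Flt1 had 11.8, 11.0 and 10.6 TPM in controls and 9.65, 9.01 and 9.73 TPM after co-culture. The co-culture values were all lower than the controls, yet the log2 fold change of -0.21 (SE 0.08) missed the threshold (adjusted p = 0.0578 in limma). The table does not separate the membrane form of Flt1 from the secreted trap. Flt1 was 1.45 to 1.69 times as abundant as Kdr in controls and 0.972 to 1.13 times after co-culture, so the pair stood nearly level there.

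Tek, the Tie2 gene, had 13.0, 11.5 and 11.1 TPM in controls and 8.75, 9.20 and 9.0 TPM after co-culture. Every co-culture library was lower than every control, and the log2 fold change was -0.36 (SE 0.08, adjusted p = 0.00656 in limma). Within the batches it was -0.53, -0.29 and -0.28. Ordered by mean TPM, the 10 genes ran Vegfd, Vegfa, Vegfb, Angpt2, Vegfc, Tek, Flt1, Kdr, Pgf and Angpt1 in controls. The ranges of Vegfc and Tek, of Tek and Flt1, and of Pgf and Angpt1 overlapped there. After co-culture Flt1 stood before Tek, and the ranges of Flt1 and Tek and of Tek and Kdr overlapped.

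Since Kdr, Flt1 and Tek are typical of endothelial cells, markers of that cell type were read beside them. Of 14 endothelial markers 9 were tested, and 22.2% of these passed, against 37.8% of all genes tested. Cdh5 was lower and Sox18 higher past the threshold. Sox18, named after its values were seen, did not pass with batch as a block (adjusted p = 0.0743 in limma). Sox18 met the filter only through its co-culture level (0.915 ± 0.597 and 1.95 ± 0.457 TPM), so that call depends on its rise, whereas Cldn5 and Robo4, with lower means after co-culture, were left out by the filter. The 14 summed to 46.4 to 48.6 TPM in controls and 40.2 to 43.8 TPM after co-culture, and none was at 0 in all libraries. The most abundant were the adhesion protein Esam (10.6 ± 0.978 and 9.93 ± 2.16 TPM), the cadherin of endothelial junctions Cdh5 (7.32 ± 0.124 and 5.11 ± 0.715 TPM) and the secreted Egfl7 (6.43 ± 0.830 and 6.29 ± 1.70 TPM; mean ± SD, n = 3 each, control first). The receptor genes stood near the levels of these 3 markers, while 8 of the 14 had means under 2 TPM in both groups. The summed markers were lower after co-culture, as were Tek and Flt1 by their means, whereas Kdr was higher, and the part of endothelial cells in the receptor values was not tested. Of 6 lymphatic endothelial markers, Lyve1, Mmrn1 and Reln were under 1 TPM in every library, Prox1 stood at 0.825 ± 0.0982 and 1.16 ± 0.00681 TPM, and Pdpn, which fibroblasts also make, at 232 ± 3.36 and 191 ± 7.79 TPM. The 6 summed to 231 to 238 TPM in controls and 188 to 203 TPM after co-culture, nearly all of it Pdpn. Every marker of the list other than Pdpn had a higher mean after co-culture, at a low level. Of the 6, only Pdpn and Flt4 were tested, and Flt4 stood at 0.822 ± 0.0726 and 1.62 ± 0.372 TPM. The 8 mural cell markers summed to 49.6 to 51.7 TPM in controls and 39.1 to 40.3 TPM after co-culture, led by Notch3 and Mcam, which fell, and Rgs4, which rose. Of 6 tested, 2 rose and 2 fell (66.7% called, against 37.8% of all genes tested). The other that rose was Cspg4 (2.33 ± 0.202 to 4.51 ± 0.137 TPM), named after its values were seen. The mural marker Higd1b was at 0 in all libraries. The 11 macrophage markers summed to 96.7 to 104 TPM and 67.4 to 83.3 TPM, led by Lyz2, Cd68 and C1qc. Of 9 tested, 2 fell and none rose (22.2% called, against 37.8% of all genes tested).

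**Figure D4:**
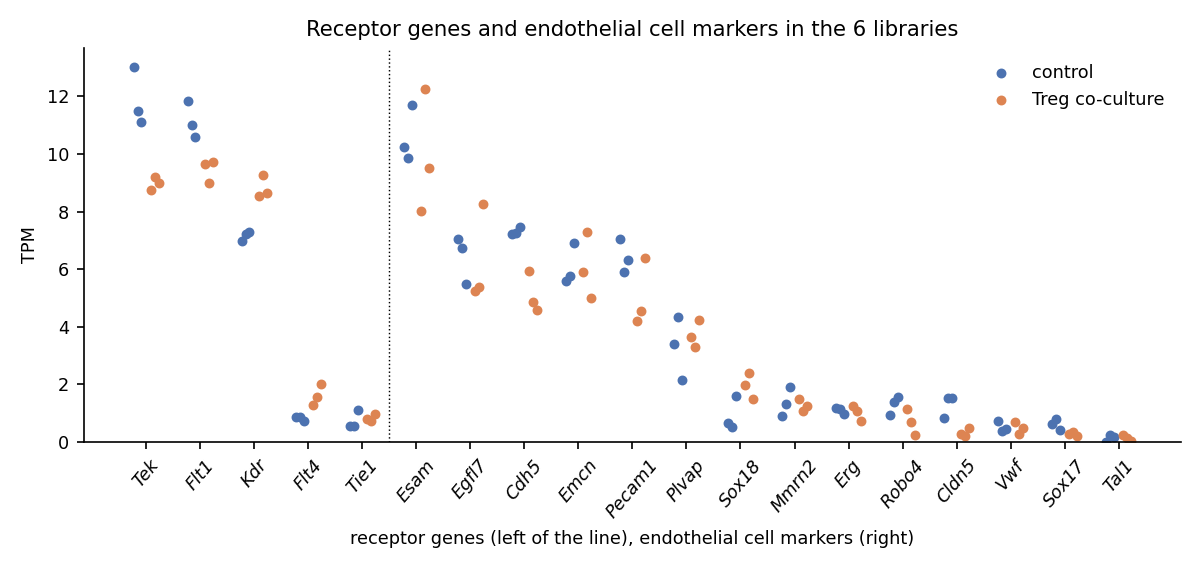
TPM of Tek, Flt1, Kdr, Flt4 and Tie1 (left of the dotted line) and of 14 endothelial cell markers (right) in 3 control and 3 Treg co-culture libraries; each point is a library. Kdr is higher and Tek and Flt1 are lower in all co-culture libraries than in any control, at levels like those of the more abundant markers.

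The other genes of the pathway were read from 8 lists with 115 genes in the table, of which 108 were tested: 22 rose, 46 fell and 40 did not pass. Of all 12405 genes tested, 37.8% passed, 19.8% higher and 18.0% lower. The counts of each list below are to be read beside these shares. Among receptors and co-receptors, 5 of 9 tested rose and 3 fell, and the median log2 fold change was 0.08. The neuropilins Nrp1 (82.2 ± 0.698 to 69.8 ± 1.56 TPM) and Nrp2 (39.1 ± 0.563 to 32.0 ± 0.744 TPM; mean ± SD, n = 3 each), co-receptors of VEGF-A and VEGF-C, both fell. The integrins Itga5 (log2 fold change 0.63), Itgav (0.21) and Itgb1 (0.08) rose. Flt4, the lymphatic receptor that binds VEGF-C and VEGF-D, was near the filter, with 0.853, 0.874 and 0.739 TPM in controls and 1.28, 1.55 and 2.02 TPM after co-culture. It passed (log2 fold change 0.51, SE 0.17, adjusted p = 0.0351 in limma) but not with batch as a block (adjusted p = 0.0605). With a control mean under 1 TPM it met the filter only through the group where it was high, so its call, 1 of the 5 higher, depends on that rise. The count of 5 higher was 3 without control 1 or Treg co-culture 2 and 2 without control 2, control 3 or Treg co-culture 3.

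VEGF-C and VEGF-D are made as precursors that proteases trim before they bind their receptor fully. Of 10 genes for this processing, 2 rose and 4 fell, with a median of -0.12. Adamts2 (-0.53), the proprotein convertase Pcsk5 (-0.42) and the lysosomal protease Ctsd (-0.28) fell, and Adamts14 rose (0.67). The count of 2 higher was 1 without Treg co-culture 2. Ccbe1, the cofactor of VEGF-C activation, was the fourth to fall (26.0 ± 0.176 to 21.9 ± 1.04 TPM, mean ± SD, n = 3 each), and the convertase Furin the other that rose (77.1 ± 6.48 to 89.9 ± 3.14 TPM). Both were named after their values were seen. Of 12 genes for matrix proteins and enzymes that bind or trap VEGF, 3 rose and 6 fell, with a median of -0.18. Ccn2, whose protein binds VEGF-A, rose (0.85), while the protease Adamts1 (-0.91), the proteoglycan decorin Dcn (-0.82) and the secreted glycoprotein Sparc (-0.31) fell.

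On the angiopoietin side, 1 of 9 tested genes rose and 5 fell, with a median of -0.19. The angiopoietin-like genes Angptl1 (-1.07) and Angptl4 (-0.72) fell, as did Svep1 (-0.64), a matrix protein of lymphatic development, and Angptl7 rose (0.22). Of 15 genes for signalling proteins behind VEGF receptors, 3 rose and 4 fell, with a median of 0.02. That is 46.7% called, against 37.8% of all genes tested. The adaptor Gab1 (-0.52), the PI3-kinase subunit Pik3r1 (-0.36) and the calcium channel Itpr1 (-0.27) fell and the kinase Fyn rose (0.25).

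Vegfa is a textbook target of the hypoxia-inducible factors (HIF). Of 9 oxygen sensing and HIF genes tested, none rose and 3 fell (33.3% called, against 37.8% of all genes tested), with a median of -0.07. These were Epas1, which encodes HIF-2 alpha (-0.51), its partner Arnt (-0.24) and the oxygen sensor Egln1 (-0.13, adjusted p = 0.0394 in limma and 0.0557 with batch as a block). Hif1a had a mean of 280 ± 11.1 TPM in controls and of 281 ± 2.01 TPM in the co-culture libraries (SD, n = 3 each). Of 19 other HIF target genes tested, 1 rose and 9 fell, with a median of -0.14. The vasoactive peptide gene Adm (-1.23), the stress gene Ndrg1 (-0.72), the mitophagy receptor Bnip3l (-0.35) and the collagen crosslinking enzyme Lox (-0.27) fell. The 1 that rose, Pfkfb4 (0.44), named after its value was seen, was not called without control 2.

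Of 25 other secreted angiogenic factors and inhibitors, 7 rose and 12 fell, with a median of -0.21. The fibroblast growth factor Fgf2 rose (146 ± 4.59 to 195 ± 4.87 TPM). The chemokine Cxcl12 fell (951 ± 21.5 to 585 ± 14.8 TPM), as did the growth factor Igf1 (21.2 ± 1.08 to 10.5 ± 0.618 TPM; mean ± SD, n = 3 each). The angiogenesis inhibitors Timp3 (-0.45) and Serpinf1 (-0.18), the latter the most abundant of the list, fell as well.

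**Figure D5:**
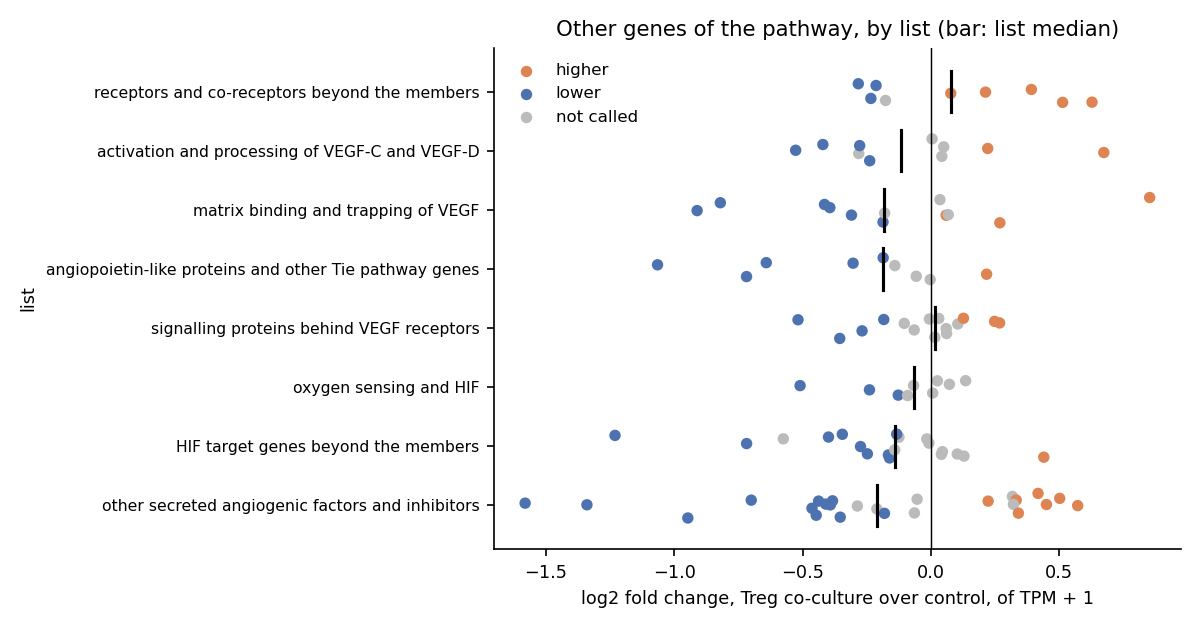
Log2 fold change of TPM + 1, Treg co-culture over control, of the tested genes of 8 lists; each point is a gene, coloured by its call, and black bars are list medians. Genes that rose and genes that fell stand in every list other than oxygen sensing and HIF, where none rose.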

How the data were processed

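The authors deposited 1 table of TPM values, per the file headers, holding all 6 libraries as columns. Of genome builds, GRCm38, mm10 and GRCm39 appear in the submitters' processing notes. For aligner, counting tool, annotation and use of strand: not given in the sources used here. Gene numbers were named from RefSeq (GRCm38.p6), which matched 21992 of 22186 rows (99.1%). From the TPM, log2(TPM + 1) was computed, which understates changes of low genes, and genes whose mean reached 1 TPM were tested with limma 3.58.1 (R 4.3.3; eBayes with trend, Benjamini-Hochberg adjustment, threshold 0.05). The fit was tested on simulated data of independent normal values, with no batch or shared culture built in. SE are limma's moderated standard errors. Tables and plots used Python 3.11.15, pandas 2.3.3 and matplotlib 3.10.9.

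The labels state that libraries of the same number share a batch, which pairs them. The correlation of their deviations from the group means was 0.0115 in batch 1, -0.0146 in batch 2 and 0.00402 in batch 3. Between control and co-culture libraries of unlike number it ran from -0.0606 to 0.0653, a range that holds those values. A batch block was fitted as an alternative. Alternatives are given in the closing section. At most 60 of 13935 genes had identical values in any of 15 library pairs.

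The 10 genes, the lists, the markers and the naming rule (from each list up to 4 called genes of lowest adjusted p and the most abundant gene, and from each marker list the 3 most abundant) were chosen with earlier results of these data known. A gene that the rule names is not reported here.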

Additional observations from a re-analysis of the deposited data

How the results depend on the processing

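Vegfd, Angpt2, Vegfb, Tek and Vegfa kept their direction and call under all 17 alternatives: no filter, a filter of 5 TPM, pseudocounts of 0.01 and 0.1, 3 other scalings, 2 other variance estimates, the replicate block, a threshold of 0.01 and each library left out. Their log2 fold changes ranged over -1.22 to -1.19, -0.70 to -0.58, -0.48 to -0.35, -0.41 to -0.30 and 0.16 to 0.19. With the replicate block the same counts of members passed (2 higher and 5 lower), and over all genes 2369 rose and 2123 fell, against 2454 and 2234 without it. Among the genes named, the block ended the calls of Flt4, Egln1 and Sox18. At an adjusted p of 0.01, 1 member rose and 4 fell, and over all genes 1626 rose and 1417 fell. With any library left out, 1 member rose (Vegfa) and 4 or 5 fell. Over all genes 2055 to 2245 rose and 1840 to 1973 fell in these fits. Whether the smaller number of libraries lowered the counts was not tested. Pgf and Angpt1 have no value under the filter of 5 TPM. The direction turned for Pgf without control 1 (0.025; with each library left out, -0.21 to 0.025). Angpt1 passed with no filter (adjusted p = 0.0315) and without the trend (0.0133), and Flt1 without the trend (0.0293), all in limma. The cause was not tested. The difference in the ratio of Angpt2 to Angpt1 (0.129 in the means) ran from -1.59 to 1.62 when a library was left out. The median log2 fold change of all genes stayed between -0.01 and 0.01 under every scaling. Depth is unknown, so low genes such as Angpt1, Pgf and Flt4 carry an unknown counting error.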
